A study of Caenorhabditis elegans with 15 samples.

Results

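The clec genes of Caenorhabditis elegans encode proteins with C-type lectin-like domains. They were taken here as every gene of the deposited table whose name starts with clec- and that reached at least 1 CPM (counts scaled to the size of the library) in at least 3 of the 15 libraries. Of 250 clec genes among the 20541 genes in the table, 104 passed and 146 did not. All 104 also met the study's requirement of at least 10 counts in a library, and they were analysed within the 14037 genes that passed both limits.

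The C-type lectin-like domain is a compact fold held by disulphide bonds that in many animal lectins binds sugars with the help of calcium. The worm has an unusually large family of such genes, many of which encode secreted proteins. Many are expressed in the intestine and change when worms meet bacterial pathogens, several of them downstream of the p38 MAP kinase PMK-1, while others are expressed in the germ line, the hypodermis or neurons.

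Wild-type N2 larvae at the L3 stage, hatched after bleaching of gravid hermaphrodites and fed OP50 bacteria, were exposed for 12 h to 50 µM ursolic acid (UA), to DMSO or to no treatment. UA is a plant triterpenoid and DMSO its solvent, so UA larvae also received DMSO and differ from untreated larvae in both. Whole animals were harvested as L4 larvae, and poly-A RNA of 5 libraries per group was sequenced to between 12485842 and 27474535 counts per library, the lowest being UA of batch 5. Every group had 1 library in each of 5 batches, and the study describes its 5 replicates per group as independent. None of the 3 groups carries a mutation or a transgene. For UA and DMSO plates the study's methods describe mostly heat-killed OP50 with a little live OP50, and the food on the untreated plates of this experiment is not given in the sources used here. In whole-animal RNA, fewer cells of a type and less RNA per cell cannot be told apart.

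Changes were tested with edgeR's quasi-likelihood test, with the batch in the model, and a gene passed at a Benjamini-Hochberg adjusted p under 0.02 over all 14037 genes. The test used each gene's own (tagwise) estimate of the spread. The default in edgeR's quasi-likelihood workflow is a trended estimate, with which fewer genes passed. For each count the number that passed with it is given too. Between UA and DMSO larvae 184 of all tested genes passed with the tagwise estimate and 38 with the trended one. The paper's own count for these groups, at the same threshold, lies nearer to the trended number. The paper's methods do not say whether the batch was in its model, so its count does not settle which estimate is better. Adjusted p from the tagwise estimate may be too small. A value not marked as trended comes from the tagwise estimate. Where a count at an unadjusted p under 0.05 is given, no share of all tested genes was computed beside it. The 3 comparisons share libraries and are not independent of each other.

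The filter drew its line among weakly expressed genes. The members nearest to it had a third-highest value of 1.16 CPM (clec-143), 1.201 CPM (clec-147) and 1.29 CPM (clec-208), while clec-233, clec-224 and clec-12 just outside had 0.958, 0.917 and 0.906 CPM. Among the 146 genes outside, 24 had no count in any library and 36 reached 10 counts in at least 1 library. The neuronal gene clec-38 had at most 17 counts in a library and clec-39, which has been tied to defence against Serratia, at most 3, so neither could be compared between groups.

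Most clec genes were weakly expressed in these L4 larvae and a single gene dominated the family. Only 6 members averaged at least 100 CPM over the 15 libraries, 36 lay between 10 and 100 CPM, and 62 lay under 10 CPM, of which 18 were under 2 CPM. The median member had 6.52 CPM, against 17.8 CPM for all tested genes. clec-63 alone held 41.6% of the summed CPM of all members.

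Levels of different genes were compared per kilobase of exon. clec-63 stood at 1298 CPM per kb, followed by clec-50 at 245, clec-1 at 150.5 and clec-150 at 122 CPM per kb. clec-48 (92.8), clec-47 (84.8), clec-83 (84.6) and clec-180 (80.1 CPM per kb) came next. clec-50, clec-63 and clec-83 are 3 of 19 clec genes listed for this report because they have been tied to infection responses, whereas clec-1, clec-47, clec-48, clec-150 and clec-180 are not on that list. clec-63 varied little among batches, with batch means from 1596 to 1765 CPM (adjusted p = 0.131 among batches, edgeR's quasi-likelihood test).

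**Figure D1:**
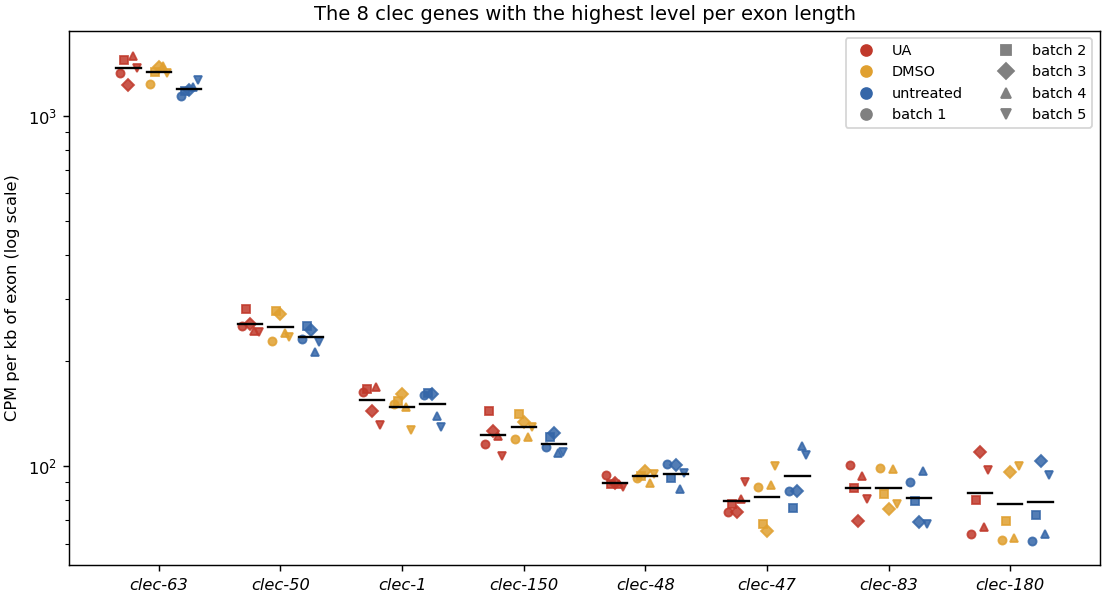
Level of the 8 clec genes with the highest CPM per kb of exon in each of the 15 libraries, on a log scale. Colours mark the group, symbols the batch and black bars the mean of 5 libraries. clec-63 lies far above the others in every library, and clec-180 is split by batch within every group.

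UA and DMSO larvae differed in few clec genes. Of the 104 members, 3 passed the test, 1 higher (clec-60) and 2 lower (clec-206 and clec-71) in UA. Over all tested genes 1.31% passed, 0.520% as higher and 0.791% as lower in UA. With the trended estimate clec-206 alone passed, against 0.271% of all tested genes. The median log2 fold change was -0.004 over the members and -0.001 over all tested genes. In edgeR's quasi-likelihood test 15 members had an unadjusted p under 0.05, and the share of all tested genes under that limit was not computed.

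clec-206 (WBGene00019089, chromosome V, 2000418 to 2004329, minus strand, WBcel235) had the largest change of any member in UA against DMSO. In batches 1 to 5 it had 2.85, 2.92, 3.72, 0.971 and 1.49 CPM in UA larvae, against 5.94, 11, 11.8, 6.86 and 5.29 CPM in DMSO larvae. Untreated larvae had 5.44, 9.89, 12.4, 6.22 and 5.31 CPM in the same batches. Every UA library lay below every DMSO and every untreated library, and within each batch the DMSO and the untreated library were close to each other. It was the 1 member of 104 whose UA and DMSO groups did not overlap, 0.962% of them, against 0.499% of all tested genes.

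The mean of clec-206 was 2.39 ± 1.13 CPM in UA, 8.17 ± 2.99 CPM in DMSO and 7.86 ± 3.16 CPM in untreated larvae (SD, n = 5 each). For UA against DMSO this gave a log2 fold change of -1.78 (SE 0.14), with an adjusted p of 1.93e-32 in edgeR's quasi-likelihood test and 5.41e-07 with the trended estimate. It was -1.71 for UA against untreated (adjusted p = 7.52e-30, and 9.77e-07 with the trended estimate) and 0.07 (SE 0.12, adjusted p = 0.946) for DMSO against untreated larvae. Its counts ranged from 19 to 286 per library, and its exons overlap no other annotated gene. It passed in both UA comparisons in all 20 fits made without 1 batch or without 1 library.

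clec-71, on the list of infection-associated genes, was lower in UA than in DMSO in all 5 batches. It had 2.398, 4.04, 2.83, 3.44 and 2.52 CPM in UA larvae, against 3.54, 4.18, 3.52, 8.31 and 5.25 CPM in DMSO larvae. In untreated larvae it had 3.20, 3.77, 3.995, 7.85 and 5.92 CPM. The groups overlapped, and most of the distance came from batches 4 and 5, in which the DMSO and untreated libraries were high. The log2 fold change was -0.64 (SE 0.16, adjusted p = 0.00583, edgeR's quasi-likelihood test) for UA against DMSO, and the adjusted p with the trended estimate was 0.0633. It was also -0.64 for UA against untreated larvae (adjusted p = 0.00349, and 0.0352 with the trended estimate).

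clec-60 is a gene often used as a readout of the response of worms to Staphylococcus aureus. It had 2.64, 1.94, 0.848, 1.58 and 2.91 CPM in UA larvae, against 0.886, 0.625, 0.457, 1.90 and 1.19 CPM in DMSO larvae, and it was higher in UA in 4 of 5 batches. Untreated larvae had 2.35, 1.26, 0.869, 3.39 and 1.77 CPM, so that the DMSO libraries were the low ones and UA and untreated libraries covered much of the same range. UA exceeded DMSO by 1.0 on the log2 scale (SE 0.26, adjusted p = 0.0100, edgeR's quasi-likelihood test), and the adjusted p with the trended estimate was 0.107. For UA against untreated it was 0.08 (SE 0.24, adjusted p = 0.935), and for DMSO against untreated larvae -0.92 (SE 0.25, adjusted p = 0.041). The gene had only 10 to 79 counts per library, and 39 bases of its exons overlap a gene on the same strand. Without replicate 1, without the UA library of batch 5 or without the DMSO library of batch 1, the count of members that passed in UA against DMSO was 1 in place of 3.

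**Figure D2:**
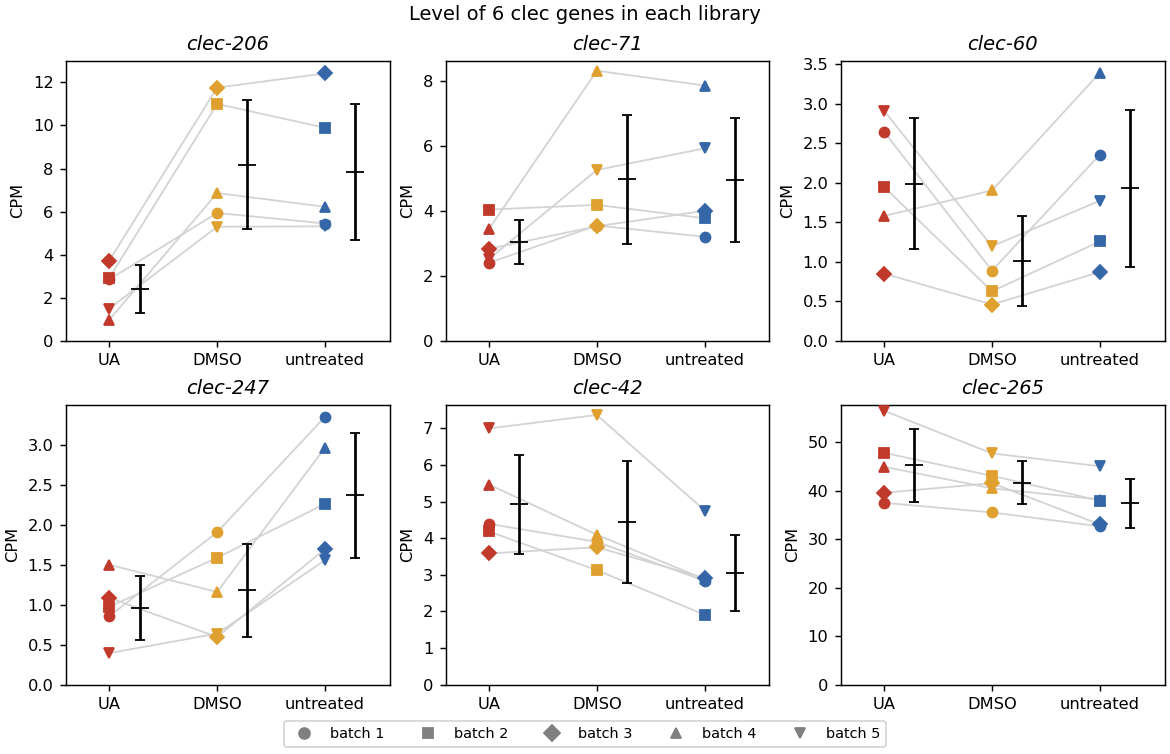
CPM of 6 clec genes in each library, with 1 panel per gene and groups along the horizontal axis. Symbols mark the batch, grey lines join libraries of a batch, and black bars give the mean and SD of 5 libraries. clec-206 separates UA from DMSO and untreated larvae, clec-247 separates UA from untreated larvae, and in the other panels the groups overlap.

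Among the 101 members that did not pass in UA against DMSO, log2 fold changes ran from -0.53 to 0.54 and 83 lay within 0.2 of 0. The highest were those of clec-75 (0.54, SE 0.20, adjusted p = 0.128), clec-76 (0.47, SE 0.27, adjusted p = 0.395) and clec-70 (0.44, SE 0.26, adjusted p = 0.408, edgeR's quasi-likelihood test). These 3 genes lie near one another on chromosome IV, between 3932708 and 3969193. The lowest were those of clec-210 (-0.53, SE 0.20), clec-229 (-0.52, SE 0.19) and clec-144 (-0.40, SE 0.24). All 6 averaged under 5 CPM in every group.

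UA and untreated larvae differed in more clec genes than UA and DMSO larvae did by count, without a test of that difference. In UA larvae 10 members were higher and 8 lower than in untreated larvae, together 17.3% of the 104. Over all tested genes 2.34% passed, 1.15% as higher and 1.19% as lower. With the trended estimate 10 members passed, against 1.05% of all tested genes. The median log2 fold change was 0.028 over the members and 0.004 over all tested genes.

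The 10 higher members changed by small amounts. They included clec-63, clec-65, clec-66 and clec-67 from the list of infection-associated genes, and besides these clec-3, clec-42, clec-84, clec-160, clec-218 and clec-265. Their log2 fold changes in UA against untreated larvae ran from 0.19 (clec-63) to 0.70 (clec-42), and clec-3, clec-42, clec-65, clec-66 and clec-265 passed also with the trended estimate. clec-67 is a gene whose expression in worms depends on PMK-1. Of the 20 fits made without 1 batch or without 1 library, clec-218 passed in 5, clec-160 in 10 and clec-67 in 12. clec-84 passed in 15 and clec-63 in 16, while clec-3, clec-42, clec-65, clec-66 and clec-265 passed in all 20.

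clec-63 had 1715, 1867, 1583, 1927 and 1772 CPM in UA larvae, against 1479, 1524, 1541, 1566 and 1637 CPM in untreated larvae. DMSO larvae had 1594, 1731, 1789, 1804 and 1720 CPM. UA libraries were above the untreated library of their batch in all 5 batches, but the UA library of batch 3 lay within the untreated range. The log2 fold change was 0.19 (SE 0.04, adjusted p = 0.00106, edgeR's quasi-likelihood test) for UA against untreated, and the adjusted p with the trended estimate was 0.0271. It was 0.04 (SE 0.04, adjusted p = 0.758) for UA against DMSO and 0.16 (SE 0.04, adjusted p = 0.0542) for DMSO against untreated larvae.

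clec-63 is the second gene of a block of 5 neighbouring members on chromosome II (12893062 to 12906644), and the last genes of the block also passed. clec-65 had 72.0, 84.8, 73.0, 83.5 and 79.3 CPM in UA larvae, against 61.6, 66.04, 71.1, 75.7 and 65.2 CPM in untreated larvae, a log2 fold change of 0.21 (SE 0.04, adjusted p = 0.000139, edgeR's quasi-likelihood test). clec-66 had 39.7, 38.8, 28.6, 49.8 and 34.5 CPM in UA larvae, against 33.0, 28.3, 28.2, 37.9 and 30.9 CPM in untreated larvae, a log2 fold change of 0.27 (SE 0.05, adjusted p = 6.86e-05). Both were higher in UA than in untreated larvae in all 5 batches, with overlapping groups. The remaining genes of the block, clec-62 and clec-64, had log2 fold changes of 0.10 (SE 0.06, adjusted p = 0.474) and 0.09 (SE 0.09, adjusted p = 0.737) and did not pass.

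clec-265, one of the 2 members on the X chromosome, had 37.5, 47.8, 39.6, 45.0 and 56.5 CPM in UA larvae. DMSO larvae had 35.5, 43.1, 41.6, 40.5 and 47.7 CPM and untreated larvae 32.7, 37.97, 33.0, 38.2 and 45.1 CPM. The untreated library was the lowest of its batch in every batch, although the ranges of the groups overlapped. UA against untreated gave a log2 fold change of 0.27 (SE 0.05, adjusted p = 8.53e-07, edgeR's quasi-likelihood test), UA against DMSO 0.11 (adjusted p = 0.177) and DMSO against untreated 0.16 (adjusted p = 0.0638).

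clec-42 had the largest increase among the members that passed in UA against untreated larvae. It had 4.39, 4.18, 3.58, 5.46 and 6.995 CPM in UA larvae, 3.90, 3.12, 3.75, 4.09 and 7.36 CPM in DMSO larvae, and 2.83, 1.91, 2.91, 2.88 and 4.75 CPM in untreated larvae. The libraries of batch 5 were the highest of each group, and the untreated library was the lowest of its batch throughout. The log2 fold change was 0.70 (SE 0.12, adjusted p = 5.79e-07, edgeR's quasi-likelihood test) for UA against untreated and 0.53 (SE 0.12, adjusted p = 0.00169) for DMSO against untreated larvae. For UA against DMSO it was 0.17 (SE 0.11, adjusted p = 0.483). clec-258 had a higher log2 fold change in UA against untreated larvae (0.87, SE 0.26), but its adjusted p of 0.0284 (edgeR's quasi-likelihood test) missed the threshold. clec-3 gave 0.48 (SE 0.09) for UA against untreated, 0.38 (SE 0.09) for DMSO against untreated and 0.10 (SE 0.09) for UA against DMSO, of which only the first 2 passed.

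The 8 lower members in UA against untreated larvae were clec-206, clec-247, clec-210, clec-230, clec-229, clec-71, clec-169 and clec-47. All but clec-47, clec-71 and clec-229 passed also with the trended estimate. Apart from clec-169 and clec-47, which averaged 11.1 and 41.2 CPM in UA and 15.2 and 48.6 CPM in untreated larvae, these genes were under 4 CPM on average in UA larvae. clec-229 and clec-230 lie near each other on chromosome V (15340006 to 15349144), and both are among the members that varied most among batches.

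clec-247 and clec-206 were the 2 members of 104 (1.92%) whose groups did not overlap in UA against untreated larvae, against 0.741% of all tested genes. It had 0.854, 0.972, 1.08, 1.497 and 0.393 CPM in UA larvae, against 3.35, 2.26, 1.69, 2.96 and 1.55 CPM in untreated larvae. DMSO larvae had 1.91, 1.58, 0.595, 1.16 and 0.637 CPM, a range that overlaps both. Its log2 fold change was -1.28 (SE 0.21, adjusted p = 5.23e-07, edgeR's quasi-likelihood test) for UA against untreated, and the adjusted p with the trended estimate was 0.00228. It was -1.03 (SE 0.20, adjusted p = 0.000184, and 0.0338 with the trended estimate) for DMSO against untreated and -0.25 (SE 0.23, adjusted p = 0.672) for UA against DMSO. Only 5 to 91 counts per library stood behind these values.

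clec-210 had 1.54, 3.35, 2.26, 0.971 and 1.57 CPM in UA larvae, against 2.57, 5.02, 4.04, 4.38 and 2.29 CPM in untreated larvae. It was lower in UA in every batch, and the batch 2 libraries were the highest of both groups. Its log2 fold change was -0.98 (SE 0.20, adjusted p = 9.90e-05, edgeR's quasi-likelihood test). clec-230 (-0.77, SE 0.18), clec-229 (-0.66, SE 0.18), clec-169 (-0.47, SE 0.10) and clec-47 (-0.23, SE 0.06) followed, and for clec-47 the adjusted p was 0.0191, close to the threshold. Of the 20 fits without 1 batch or library, clec-47 passed in 9 and clec-229 in 10.

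**Figure D3:**
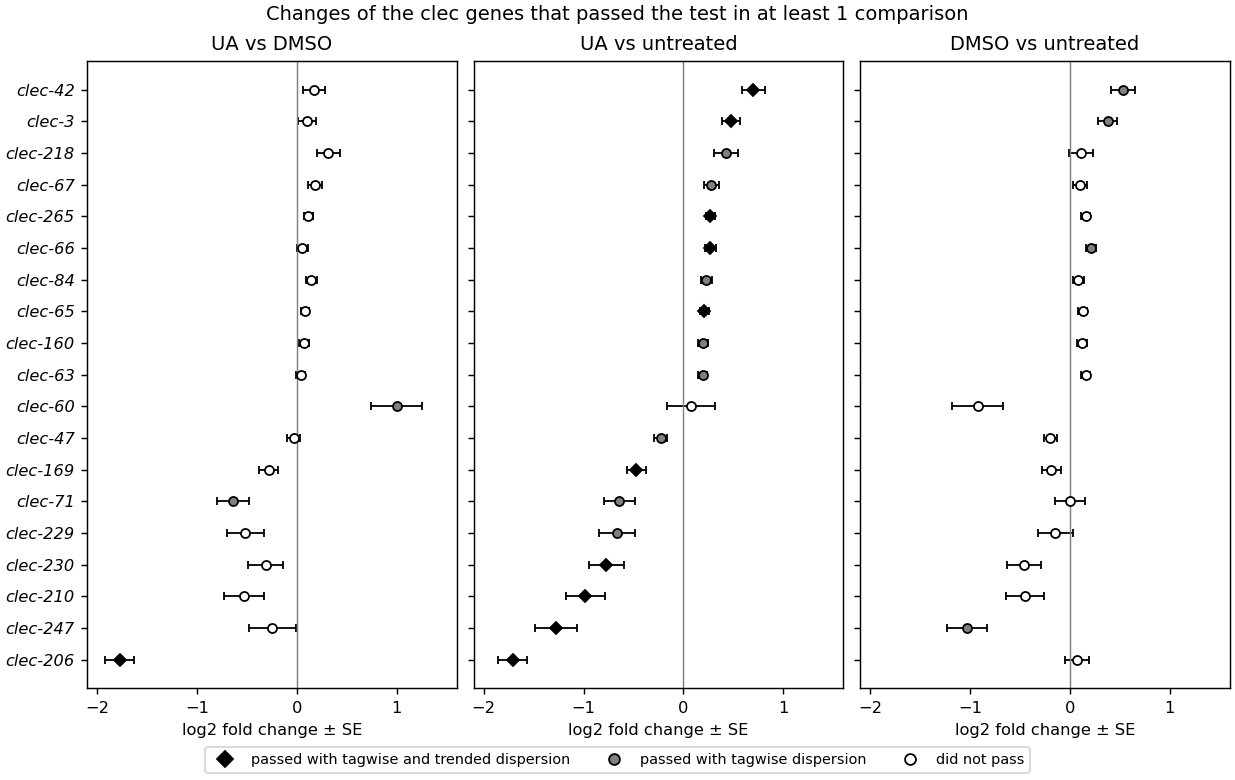
Log2 fold changes with SE of the 19 clec genes that passed in at least 1 comparison of treatments, in 1 panel per comparison. Black diamonds passed with both estimates of the spread, grey circles with the tagwise estimate alone, and open circles did not pass. clec-206 lies at -1.78 and -1.71 in the UA panels and at 0.07 in the DMSO panel, while clec-42, clec-3 and clec-247 are displaced in both comparisons with untreated larvae.

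DMSO and untreated larvae differed in 4 clec genes. clec-3, clec-42 and clec-66 were higher and clec-247 was lower in DMSO, 3.85% of the 104 members. Over all tested genes 0.506% passed, 0.321% as higher and 0.185% as lower in DMSO. With the trended estimate none of the 104 passed, against 0.121% of all tested genes, and DESeq2 called 1. With the tagwise estimate 32 members had an unadjusted p under 0.05 in edgeR's quasi-likelihood test. The share of all tested genes under that limit was not computed, so nothing is read from this count. No member had groups that did not overlap, against 0.157% of all tested genes. clec-66 had 38.4, 34.2, 28.8, 45.3 and 37.5 CPM in DMSO larvae, above the untreated library of every batch (log2 fold change 0.21, SE 0.05, adjusted p = 0.0126, edgeR's quasi-likelihood test). The median log2 fold change was 0.048 over the members and 0.006 over all tested genes.

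The count in DMSO against untreated larvae rested on single libraries more than the others did. It was 1 or 2 without replicate 1, 2 or 5, without the DMSO library of batch 3 or 5, and without the untreated library of batch 1, 2, 4 or 5, and it was 7 without the UA library of batch 4. clec-66 passed in 6 of the 20 fits, clec-3 in 7, clec-42 in 15 and clec-247 in all 20. With only the 10 DMSO and untreated libraries in the fit the count was 10.

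The summed CPM of all 104 members was 3937 to 4388 in UA, 3924 to 4263 in DMSO and 3744 to 3971 in untreated libraries. Without clec-63 the sums were 2332 to 2474 in UA, 2330 to 2459 in DMSO and 2251 to 2406 in untreated libraries. The ranges of UA and untreated libraries overlapped in both sums, but within batches both sums were higher in UA than in untreated larvae in 5 of 5 batches, and higher in DMSO than in untreated larvae in 5 of 5. UA was above DMSO in 3 of 5 batches in both sums.

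The list of 19 infection-associated clec genes held 18 members and was chosen with earlier results of these data known. In UA against DMSO 1 of the 18 was higher (clec-60) and 1 lower (clec-71). In UA against untreated 4 were higher (clec-63, clec-65, clec-66 and clec-67) and 1 lower (clec-71), of which 2 passed with the trended estimate. In DMSO against untreated 1 was higher (clec-66). In the same 3 comparisons 3, 18 and 4 of all 104 members passed, and 1.31%, 2.34% and 0.506% of all tested genes. With the trended estimate 10 of the 104 members passed in UA against untreated larvae, and 1.05% of all tested genes. The median log2 fold change over the 18 was 0.03 in UA against DMSO, 0.09 in UA against untreated and 0.10 in DMSO against untreated larvae. Over all 104 members these medians were -0.004, 0.028 and 0.048, and over all tested genes -0.001, 0.004 and 0.006. Genes of the list that did not pass in any of these comparisons included clec-85, another PMK-1-dependent gene (0.11, SE 0.07, in UA against untreated), and clec-4 (0.04, SE 0.08), clec-7 (0.04, SE 0.09) and clec-52 (0.01, SE 0.07) in the same comparison.

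Genes that act above or beside the clec genes in intestinal defence were read from lists chosen in the same way. Of 17 regulators, such as the p38 pathway kinases nsy-1, sek-1 and pmk-1 and the intestinal transcription factor elt-2, none passed edgeR's quasi-likelihood test in any of the 3 comparisons with either estimate. At an unadjusted p under 0.05 the numbers were 2 in UA against DMSO, 3 in UA against untreated and 2 in DMSO against untreated larvae. Nearest to the threshold were nsy-1 in UA against DMSO (0.16, SE 0.05, adjusted p = 0.0243) and pqm-1 in UA against untreated (-0.22, SE 0.06, adjusted p = 0.0285, edgeR's quasi-likelihood test). With the trended estimate these adjusted p were 0.115 and 0.137. pmk-1 changed by 0.03 (SE 0.05) in UA against DMSO and by -0.01 (SE 0.05) in UA against untreated larvae. These are mRNA levels of whole animals, and the activity of the encoded proteins was not measured.

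Of 29 other secreted effectors such as lysozymes, 10 were higher and none was lower in UA against untreated larvae, and 6 of these passed with the trended estimate. Over all tested genes 1.15% passed as higher and 1.19% as lower, and 1.05% passed with the trended estimate. The 10 effectors included the lysozyme genes lys-2 (0.25, SE 0.05) and lys-7 (0.33, SE 0.08), the infection response gene irg-4 (0.39, SE 0.07) and dod-24 (0.80, SE 0.07). In DMSO against untreated 3 were higher, ilys-2 (1.57, SE 0.21), dod-24 (0.71, SE 0.07) and irg-5 (0.28, SE 0.07), against 0.321% of all tested genes. With the trended estimate 2 effectors passed there, against 0.121% of all tested genes. In UA against DMSO none passed edgeR's quasi-likelihood test, and 8 had an unadjusted p under 0.05. Of the 12 galectin genes, the other lectin family examined, lec-10 alone passed in UA against untreated (0.15, SE 0.04), against 2.34% of all tested genes. It did not pass with the trended estimate.

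Markers of tissue and stage were read beside these results. The summed CPM of 5 intestinal markers was 1670 to 2060 in UA, 1717 to 2144 in DMSO and 1645 to 2068 in untreated libraries, and none of the 5 passed edgeR's quasi-likelihood test in any comparison, while 2 in UA against DMSO, 1 in UA against untreated and 1 in DMSO against untreated had an unadjusted p under 0.05. The yolk genes vit-2, vit-5 and vit-6, which the intestine switches on at the end of larval life, summed to a mean of 844.8 CPM in UA, 1047 CPM in DMSO and 1079 CPM in untreated larvae. vit-2 (-0.46, SE 0.07) and vit-6 (-0.38, SE 0.07) passed as lower in UA against untreated larvae. Of 6 oocyte genes, perm-4 passed as lower in UA against DMSO (-0.23, SE 0.05) and against untreated larvae, but the median log2 fold change of the 6 was 0.10 in UA against untreated larvae, where 4 had an unadjusted p under 0.05. Of 6 hypodermal genes 1 passed as lower in UA against DMSO larvae, and 2 had an unadjusted p under 0.05. Over all tested genes 0.791% passed as lower in UA against DMSO and 1.19% in UA against untreated larvae. The part of stage in the clec results was not tested.

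The clec genes differed more among batches than among treatments. Of the 104 members, 85 differed among the 5 batches, or 81.7%, against 61.5% of all tested genes. With the trended estimate 74 did, or 71.2%, against 53.0% of all tested genes. Over the members the median range of the batch means was 0.62 on the log2 scale, against 0.16 for the range of the group means. Over all tested genes these medians were 0.36 and 0.10. A range over 5 batches is wider by construction than one over 3 groups. The batch range was over 1 on the log2 scale in 28 members, 26.9% of them, against 13.05% of all tested genes. It exceeded the group range in 99 of the 104, a count for which no share of all tested genes was computed.

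The members did not follow a single order of batches. Earlier results of these data had set batches 1 and 4 apart from batches 3 and 5. Of the 85 members that differed, 30 had both batches 1 and 4 above both batches 3 and 5, which is 35.3%, against 41.9% of all genes that differed. In 17 members, 20%, batches 3 and 5 were above 1 and 4, against 29.6% of all genes that differed. The remaining 38 showed neither order, 44.7%, against 28.6% of all genes that differed. Batch 5 was the lowest for 29 of the 85 members, 34.1%, against 35.8% of all genes that differed, and the highest for 21, 24.7%, against 29.1%. Batch 1 was the highest for 22, 25.9%, against 23.4% of all genes that differed.

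**Figure D4:**
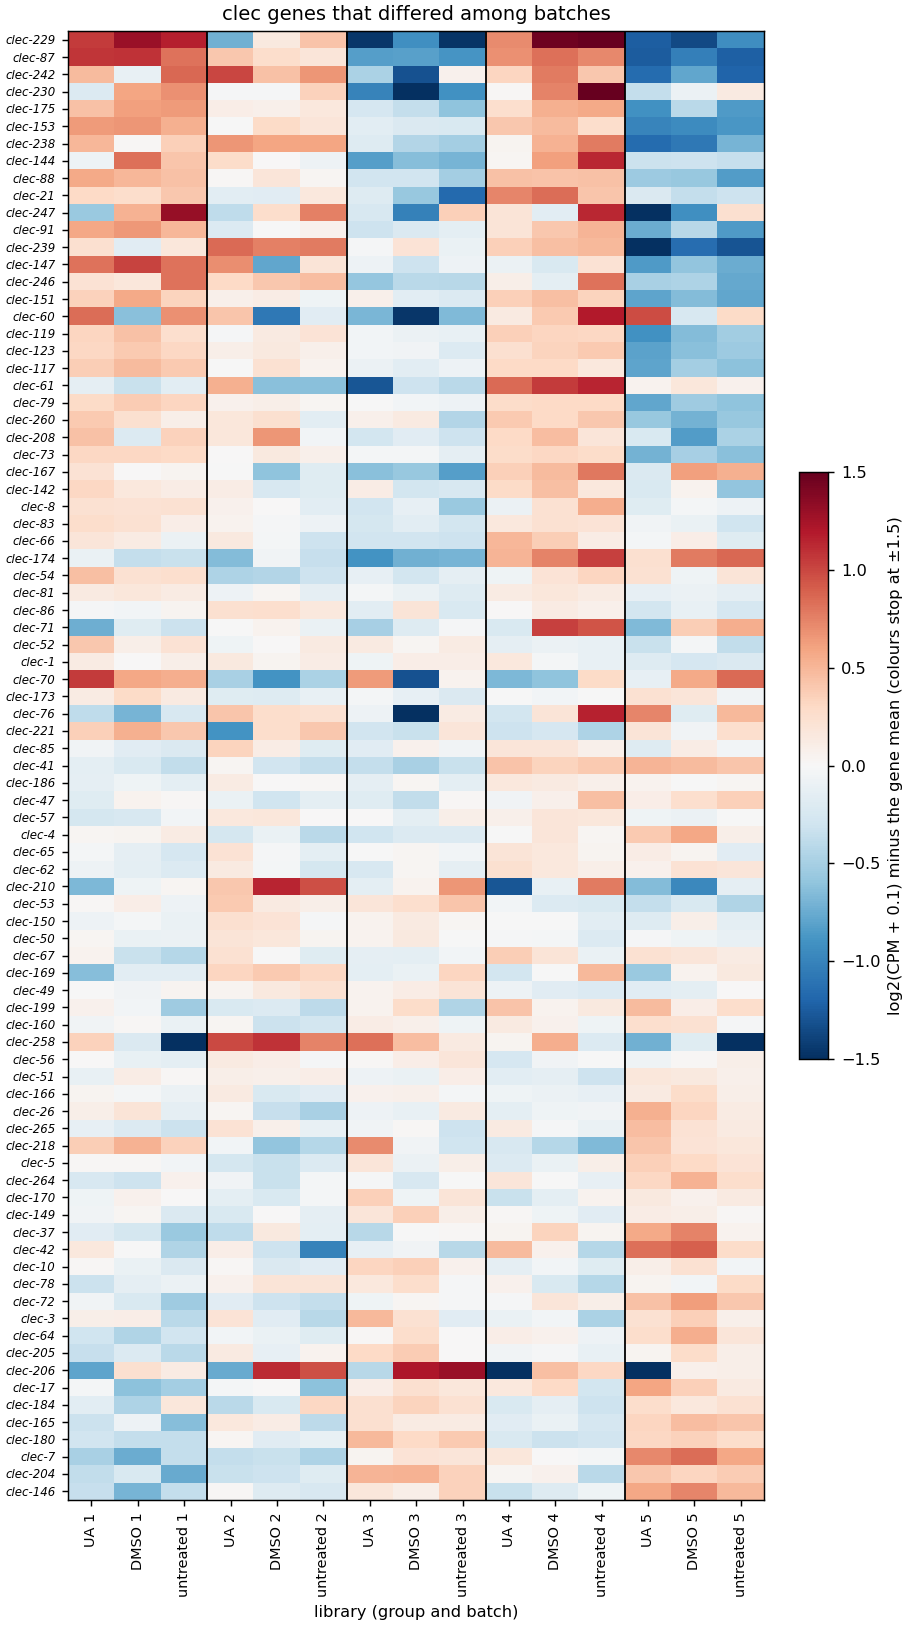
Log2(CPM + 0.1) minus the mean of the gene for the 85 clec genes that differed among batches, in the 15 libraries ordered by batch and, within a batch, as UA, DMSO and untreated. Genes run from those highest in batches 1 and 4 at the top to those highest in batches 3 and 5 at the bottom. Colours are mostly shared by the 3 libraries of a batch, while clec-206 near the bottom is blue in all 5 UA libraries.

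The member with the largest batch range was clec-229, with batch means of 4.61, 2.03, 0.772, 5.47 and 0.832 CPM in batches 1 to 5 (adjusted p = 1.69e-50 among batches, edgeR's quasi-likelihood test). Its highest batch mean was 6.23 times the lowest on the scale of log2 CPM with a prior count of 2. Its libraries had 4.23, 1.17, 0.660, 3.32 and 0.786 CPM in UA, 5.01, 2.21, 1.01, 5.62 and 0.717 CPM in DMSO, and 4.597, 2.71, 0.651, 7.47 and 0.994 CPM in untreated larvae. Batches 1 and 4 were the highest in all 3 groups, so that each group alone spanned more than the difference between groups.

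clec-87 was likewise high in batches 1 and 4, at a higher level. It had 54.7, 34.5, 14.6, 41.8 and 10.8 CPM in UA, 55.1, 31.3, 14.7, 46.1 and 12.7 CPM in DMSO, and 45.6, 29.5, 13.98, 42.8 and 11.02 CPM in untreated larvae. Its batch means were 51.8, 31.8, 14.4, 43.6 and 11.53 CPM, and only the ranges of batches 1 and 4 overlapped. Its log2 fold change was -0.04 (SE 0.06) for UA against DMSO and 0.12 (SE 0.06) for UA against untreated larvae, neither of which passed. Part of its exons, 138 bases, overlaps a gene on the opposite strand.

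The other members with the largest batch ranges were clec-239 (2.15 on the log2 scale), clec-230 (1.97), clec-258 (1.79), clec-242 (1.77), clec-61 (1.68) and clec-147 (1.64). clec-239 and clec-242 were lowest in batch 5 and clec-61 was highest in batch 4. clec-258 was highest in batch 2, with a batch mean of 2.21 CPM, and lowest in batch 5, with 0.629 CPM. clec-242, clec-258 and clec-147 averaged under 2 CPM in every group.

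Of the 18 members on the infection list, 16 differed among batches, beside the 61.5% of all tested genes. Batches 1 and 4 were above 3 and 5 in 3 of these (clec-66, clec-83 and clec-86), batches 3 and 5 were above 1 and 4 in 2 (clec-7 and clec-17), and 11 showed neither order. clec-41 had batch means of 89.3, 92.2, 80.4, 138 and 146 CPM and was thus high in batches 4 and 5. clec-7 had batch means of 4.87, 5.36, 7.80, 7.30 and 11.6 CPM and was highest in batch 5. clec-180, which is not on the list, had batch means of 178, 212, 295, 184 and 277 CPM and was high in batches 3 and 5.

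Germline and yolk markers differed among batches as well. In batches 1 to 5 the summed CPM of 6 oocyte genes averaged 382.7, 271.1, 166.2, 328.4 and 126.4, and that of 6 sperm genes 268.1, 235.7, 191.0, 250.9 and 131.4. The 3 yolk genes averaged 2572, 821.5, 326.5, 926.3 and 304.8 CPM. The intestinal markers averaged 1786, 1904, 1859, 1677 and 2091 CPM. The oocyte, sperm and yolk sums stood in the order of batches 1, 4, 2, 3 and 5, as clec-87 did. The labels do not say what the libraries of a batch share, and the part of developmental stage in the batch differences was not tested.

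**Figure D5:**
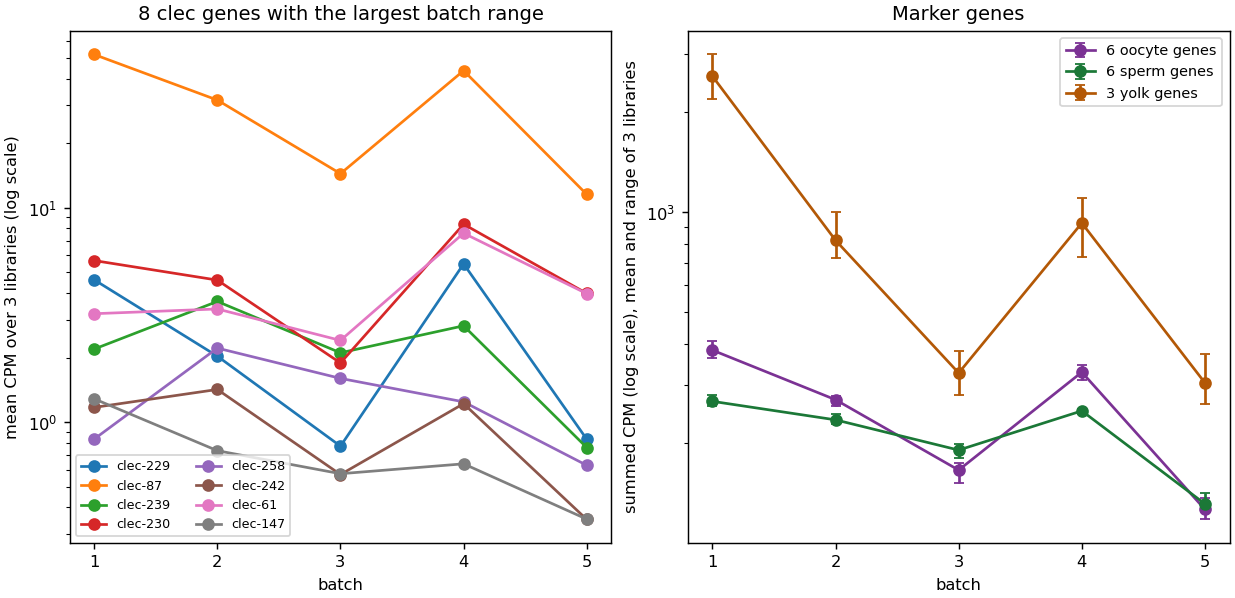
Left, mean CPM over the 3 libraries of each batch for the 8 clec genes with the largest batch range, on a log scale. Right, summed CPM of 6 oocyte genes, 6 sperm genes and 3 yolk genes, as mean and range of the 3 libraries of a batch, on a log scale. Lines only join values of the same gene or list. clec-87 and clec-229 are high in batches 1 and 4 and low in batches 3 and 5, as the oocyte and yolk sums are, whereas clec-258 is highest in batch 2 and clec-61 in batch 4.

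The members were unevenly spread over the genome. Chromosome IV held 33 members, 31.7%, against 17.01% of all tested genes, and chromosome V held 34, 32.7%, against 19.4%. Chromosome II had 23, chromosomes I and III 6 each and the X chromosome 2. With no other protein-coding gene between them, 39 members formed 16 blocks, the longest being that of clec-62 to clec-66. In the block of clec-70, clec-71 and clec-174 on chromosome IV (3932708 to 3941708) only clec-71 passed in UA against untreated larvae. Its log2 fold change was -0.64 (SE 0.16), and it did not pass with the trended estimate. clec-70 (-0.10, SE 0.25) and clec-174 (-0.34, SE 0.20) did not pass, and differences between these genes were not tested.

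Positions come from the WBcel235 annotation, which held 103 of the 104 members and not clec-81. Exons of 21 members overlap those of another gene, 7 on the same strand and 14 on the opposite strand. The library kit was stranded, but whether the counting used strand and how reads that fit several similar genes were treated is not given in the sources used here, so values of overlapping members and of close copies within the family are less certain.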

How the data were processed

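RNA-seq libraries of 15 samples of whole L4 larvae were used, with groups and batches taken from the sample labels. Per the labels and the paper's methods, the authors mapped single-end reads to WBcel235 with STAR 2.5.2b, marked duplicates with Picard and assigned reads to exons with featureCounts 1.5.2. The deposited values are their unnormalized counts, 1 per gene and library. Depth sets the precision, which is lowest for the UA library of batch 5.

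Genes that reached 10 counts in 1 library and 1 CPM in 3 entered a model in edgeR 4.0.16 under R 4.3.3 (glmQLFit with its legacy option and tagwise dispersions, TMM scaling, group and batch as terms, all 15 libraries). A false discovery rate of 0.02 was used. SEs are the size of the log2 fold change over the square root of F. CPM uses TMM library sizes, and log2 CPM a prior count of 2. p-values set each difference against the spread that group and batch leave between these samples. The test was also run on counts simulated with the same tagwise estimates. Because the simulation takes these estimates as true, it cannot show whether they are too lenient for the real counts.

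The members, the gene lists and the grouping of batches were chosen with earlier results of these data known. The text names members that passed in a comparison of treatments, the 8 highest per kb, the 8 with the largest batch range, the infection list, the 3 highest and 3 lowest uncalled changes of UA against DMSO, and clec-38. clec-62, clec-64, clec-174, the genes at the filter limit and the listed regulators and markers are named besides, after their values were seen.

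The label's replicate number is the batch. Deviations from the group means were correlated within batches (from 0.413 to 0.844 across genes), so the replicate block was part of the main design. The alternatives were RLE factors, DESeq2 1.42.0, the trended dispersion, the method of edgeR 4, the robust option, a filter of 10 counts in each library or none, a false discovery rate of 0.05, only the libraries compared, no replicate block, and omission of single batches and libraries. Plots were made in Python 3.11.15 (matplotlib 3.10.9). Sequences were not analysed here.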

Additional observations from a re-analysis of the deposited data

Results flagged for a closer look

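In 5 of the 132 groups of 5 libraries examined for the named clec genes, 1 library stood apart from the others by Dixon's test, where chance gives about 1 in 20, or 6.6 groups. clec-17 had 7.07 CPM in the UA library of batch 5, against 4.55 to 5.22 CPM in the other UA libraries. clec-42 had 7.36 CPM in the DMSO library of batch 5, against 3.12 to 4.09 CPM in the other DMSO libraries, and clec-147 had 1.42 CPM in the DMSO library of batch 1, against 0.336 to 0.537 CPM. Among untreated libraries, that of batch 4 was high for clec-61 (8.28 CPM, the others 2.36 to 3.89 CPM) and for clec-84 (25.8 CPM, the others 22.5 to 23.5 CPM).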

How the results depend on the processing

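The number of clec genes that passed depended on the estimate of the spread. In UA against DMSO it was 3, and 1 with DESeq2, with the trended dispersion, with the method of edgeR 4 and with no replicate block, and 1 to 4 when a batch or a library was left out. In UA against untreated it was 18, and 10 with the trended dispersion and with the method of edgeR 4, 1 with no replicate block, and 12 to 19 with a batch or a library left out. With DESeq2 clec-47, clec-67, clec-84, clec-160, clec-218 and clec-229 lost their call in UA against untreated larvae. In DMSO against untreated it was 4, and 1 with DESeq2, 0 with the trended dispersion, with the method of edgeR 4 and with no replicate block, 10 with only the libraries compared, and 1 to 7 with a batch or a library left out. Over all tested genes, the counts of 184, 329 and 71 in these comparisons became 38, 147 and 17 with the trended dispersion, 61, 154 and 26 with DESeq2, and 15, 24 and 5 with no replicate block, and the last count was 175 with only the libraries compared. Among batches 85 members passed, and 75 to 87 with a batch or a library left out. The median log2 fold change over the members ran from -0.019 to 0.009, from 0.005 to 0.055 and from 0.026 to 0.06 in the same fits. clec-206 passed in both UA comparisons under every alternative run, with log2 fold changes against DMSO from -1.99 to -1.59 when libraries were left out. In UA against DMSO clec-60 kept its call in 9 of these 20 fits and clec-71 in 12. None of the 19 genes that passed changed direction under the alternatives run for the comparison in which it passed, and clec-247, with under 10 counts in a library, was not tested with the filter of 10 counts in each library. With 12485842 to 27474535 counts per library, the 62 members under 10 CPM were measured least precisely.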
